A study of Homo sapiens with 4 samples.

Results

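The 45 genes described here encode glucose transporters, the enzymes of glycolysis, enzymes and transporters of lactate, the entry of pyruvate into mitochondria, and the enzymes of the tricarboxylic acid (TCA) cycle. The TCA cycle list also holds IDH1 and MDH1, cytosolic forms that lie outside the mitochondrial cycle. They were chosen by name as listed genes of these pathways, with earlier results of these data known. All 45 were found among the 18449 gene symbols of the count table, with 17 genes of glucose uptake and glycolysis, 4 of lactate, 6 of pyruvate entry, and 18 of the TCA cycle. RNA had been sequenced from BT-16 and CHLA-266, cell lines of atypical teratoid/rhabdoid tumor of the MYC subgroup (AT/RT-MYC), a malignant brain tumor of early childhood. The untreated cells of each line had received no drug. The treated cells of each line had received 1 µM doxorubicin, 5 µM etoposide, and 1 µM vincristine, added one after the other on 3 consecutive days, and were harvested weeks later, after most cells had died and survivors had grown again, per the methods of the study. Doxorubicin and etoposide act on topoisomerase II, and vincristine acts on microtubules. There was 1 library per cell line and condition, so 4 libraries in all and 2 libraries per condition, and the cell lines served as the replicates. The p-values therefore measure the spread between 2 cell lines and not between repeated cultures. All groups were established lines in the same medium with fetal bovine serum and insulin, and all libraries carried the same batch label.

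Glycolysis splits glucose into pyruvate in the cytosol, and its flux is set mainly at glucose uptake, hexokinase, phosphofructokinase, and pyruvate kinase. Pyruvate is either reduced to lactate by lactate dehydrogenase and exported by monocarboxylate transporters, or enters mitochondria, where the pyruvate dehydrogenase complex turns it into acetyl-CoA unless pyruvate dehydrogenase kinases switch the complex off. The TCA cycle oxidizes acetyl-CoA and supplies electrons to the respiratory chain and carbon for synthesis. Many proliferating tumor cells use glucose at a high rate and release lactate, and MYC and hypoxia-inducible factors are known regulators of several of these genes.

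The BT-16 libraries held 75087194 (untreated) and 51489714 (treated) counts, and the CHLA-266 libraries 66192504 and 49849258. Treated libraries thus held fewer counts, so an equal level gives a lower raw count there, and log2 ratios and fold changes below are given after normalization by the trimmed mean of M values (TMM), which sets libraries to a common scale. Genes with at least 1 count numbered 16079 and 17815 (BT-16) and 15464 and 17114 (CHLA-266). The 380 olfactory receptor genes, which encode odorant sensors of the nose, had a 95th percentile of 4.11 (BT-16) and 3.81 (CHLA-266) counts per kilobase of exon without treatment and of 26.3 and 21.2 after it. PDK4 lay at or below that level in all 4 libraries, SLC16A3 in both treated libraries, and PDK2 in treated CHLA-266 cells, and the other 42 members lay above it in every library. AT/RT are defined by loss of SMARCB1 or, rarely, SMARCA4. SMARCB1 had 84.4 and 59.4 counts per kilobase (BT-16) and 79.5 and 50.04 (CHLA-266), while SMARCA4 had 3815 and 1889 (BT-16) and 3572 and 2292 (CHLA-266). MYC, a gene that names the subgroup, stood at 14275 and 6804 counts in BT-16 and at 11515 and 7505 in CHLA-266. MKI67, a marker of proliferating cells, fell in BT-16 from 109853 to 1262 counts and in CHLA-266 from 96814 to 1386.

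To see how the pathways differed between treated and untreated cells, each gene was tested with edgeR (quasi-likelihood test, Benjamini-Hochberg adjustment over 18066 genes, threshold 0.05). Of the 45 members, 26 were called lower in treated cells and 0 were called higher. Over all genes tested, 19.1% were called lower and 16.1% higher. Since 44 members reached 10 counts in all 4 libraries, the closer background is the 12620 genes with such counts, of which 27.3% were called lower and 12.3% higher. At an unadjusted p under 0.05, 2 members were higher and 31 lower. DESeq2 without the cell line called 4 members higher (SLC2A3, ENO2, PDK4, and IDH1), and limma on the deposited log2 values called 1 (PDK4). The median log2 fold change was -0.76 over the 45 members, 0.24 over all genes tested, and -0.18 over the genes reaching 10 counts in every library. In bulk samples, fewer cells of a type and less RNA per cell cannot be told apart.

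Members of both pathways fell in treated cells, and the fold changes were spread more widely in glycolysis than in the TCA cycle. Of 17 genes of glucose uptake and glycolysis, 8 fell, 9 were not called, and the median log2 fold change was -0.41 (-0.06 under upper-quartile normalization). Of 4 lactate genes, 3 fell, with a median of -1.15. Counted together, 11 of 21 glycolysis and lactate genes fell, 10 were not called, and the median was -1.03. Of 18 TCA cycle genes, 12 fell, 6 were not called, and the median was -0.72 (-0.37 under upper-quartile normalization). Which pathway had the lower median thus turned on the lactate genes, since glycolysis lay below the TCA cycle with them and above it without them. The standard deviation of the fold changes was 0.97 among glycolysis and lactate genes, 1.01 without the lactate genes, and 0.53 among TCA cycle genes, and the range was 3.34 against 2.38 on the log2 scale. Of the 6 pyruvate entry genes, 3 fell, with a median of -0.75. In both treated libraries, 17 of 18 TCA cycle genes lay below both untreated libraries, compared with 13 of 21 glycolysis and lactate genes and 3 of 6 pyruvate entry genes. Such non-overlap in this direction held for 32.3% of all genes tested and 45.5% of those reaching 10 counts in every library. The opposite non-overlap held for 7 members (SLC2A3, PFKM, ALDOA, ENO2, SLC16A3, PDK4, and IDH1), compared with 40.2% of all genes tested and 28.1% of those reaching 10 counts in every library.

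**Figure D1:**
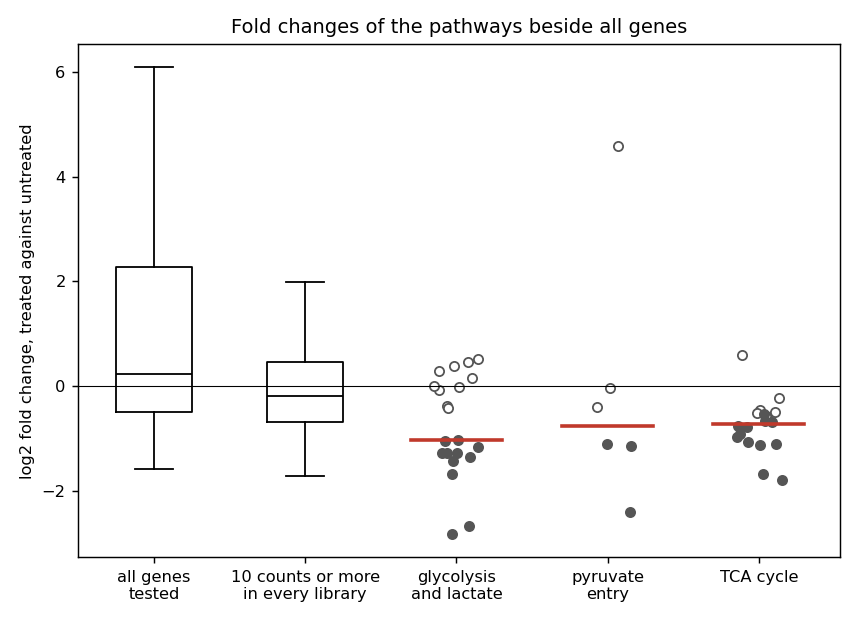
Log2 fold changes between treated and untreated cells (edgeR, 2 libraries per condition) for the members of each pathway, with boxes for all 18066 genes tested and for the 12620 genes reaching 10 counts in every library (quartiles, whiskers at the 5th and 95th percentiles). Red lines mark medians (-1.03 for glycolysis and lactate together, -0.75 for pyruvate entry, and -0.72 for the TCA cycle), filled points were called at an adjusted p under 0.05, and the pyruvate entry gene far above the others is PDK4, with 0 to 38 counts.

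Within each cell line the order of the medians also turned on the lactate genes. Glycolysis and lactate genes had a median log2 ratio of -0.96 (BT-16) and -0.81 (CHLA-266), and TCA cycle genes one of -0.69 and -0.76. For the 17 genes of glucose uptake and glycolysis alone it was -0.59 and -0.26. The median of glycolysis minus that of the TCA cycle, which does not depend on how the libraries are scaled, came to -0.27 (BT-16) and -0.05 (CHLA-266) with the lactate genes and to 0.10 and 0.51 without them. As a share of all counts, glycolysis and lactate genes took 1.09% before and 0.956% after treatment of BT-16, and 0.930% and 0.821% for CHLA-266. TCA cycle genes took 0.183% and 0.139% (BT-16) and 0.169% and 0.127% (CHLA-266). PKM and GAPDH, the members with the most counts in every library, were not called. With 1 library per cell line and condition, the difference of response between the lines has no test.

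How many members were called depended on the scaling of the libraries. Upper-quartile normalization moved the median of all genes from 0.24 to 0.59 and called 10.5% of all genes lower and 24.1% higher. Under it, 19 members were lower (10 of glycolysis and lactate, 2 of pyruvate entry, and 7 of the TCA cycle) and 5 were higher (SLC2A3, PFKM, ENO2, PKM, and IDH1). When the cell line entered the model as a block, 31 members were lower and 3 were higher (SLC2A3, ENO2, and IDH1), where 23.7% of all genes were lower and 17.9% higher. Ratios between members of the same library, which are given for the isoenzymes below, are not touched by this choice.

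**Figure D2:**
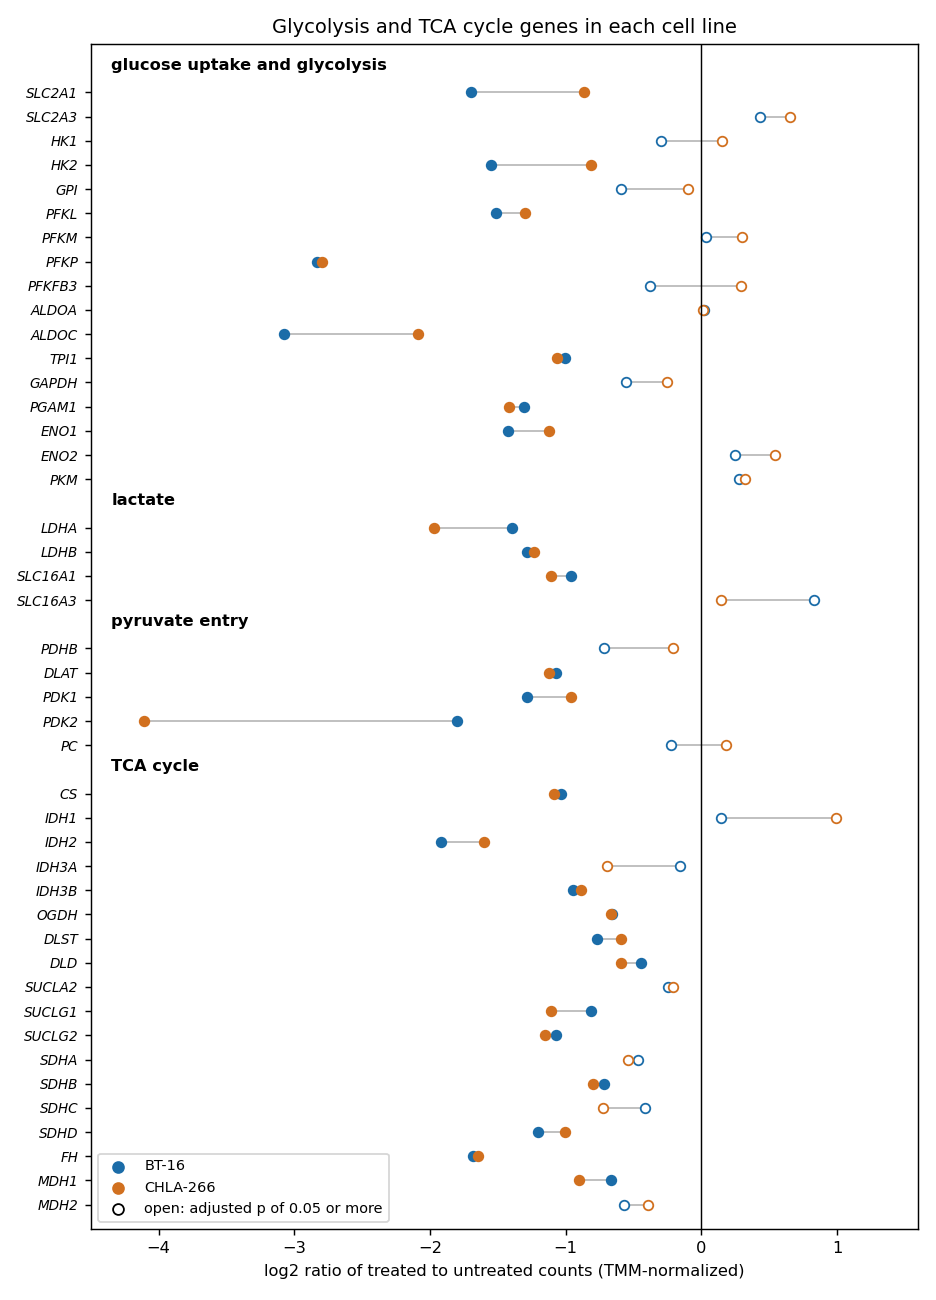
Log2 ratio of treated to untreated TMM-normalized counts in BT-16 (blue) and CHLA-266 (orange) for 44 members, without PDK4, in order of pathway step (1 library per cell line and condition). Filled points belong to the 26 members called lower in treated cells, and open points to members that were not called, of which SLC2A3, PFKM, ALDOA, ENO2, PKM, SLC16A3, and IDH1 lie above 0 in both lines.

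At the uptake step, the glucose transporters went apart. SLC2A1 (GLUT1), the broadly expressed transporter, fell in BT-16 from 2452 to 633 counts and in CHLA-266 from 1774 to 823, and its log2 fold change was -1.27 ± 0.24 (SE from the edgeR fit, n = 2 libraries per condition, adjusted p = 0.00552). SLC2A3 (GLUT3), the high-affinity transporter known from neurons, stood at 9449 and 10662 counts in BT-16 and at 5430 and 7206 in CHLA-266, and its log2 fold change was 0.52 ± 0.24 (adjusted p = 0.116, or 0.0035 in the model that holds the cell line). Both treated libraries lay above both untreated ones for SLC2A3 after normalization and below them for SLC2A1. Per kilobase of exon, SLC2A3 made up 77.8% of the sum of both genes before and 93.9% after treatment of BT-16, and 73.6% and 88.9% for CHLA-266. The ratio of SLC2A3 to SLC2A1 was higher after treatment by 4.37-fold (BT-16) and 2.86-fold (CHLA-266). SLC2A3 has a close copy, SLC2A14, with 16 to 100 counts, and the counting may have split reads between them.

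Hexokinases trap glucose in the cell by phosphorylation. HK2, the inducible form often raised in tumors, fell in BT-16 from 4918 to 1408 counts and in CHLA-266 from 3750 to 1805 (log2 fold change -1.16 ± 0.21, adjusted p = 0.00396). HK1, the housekeeping form, stood at 71399 and 48588 counts in BT-16 and at 52017 and 48904 in CHLA-266 (-0.08 ± 0.18, adjusted p = 0.747, and 0.27 on the log2 scale under upper-quartile normalization). HK1 was the main form in every library, with 92.6% and 96.7% of the summed level per kilobase (BT-16) and 92.3% and 95.9% (CHLA-266). HK1 alone was lower in one line and higher in the other, with log2 ratios of -0.30 (BT-16) and 0.16 (CHLA-266), while the ratio of HK1 to HK2 was 2.38-fold and 1.95-fold higher in treated cells. GPI, which converts glucose 6-phosphate to fructose 6-phosphate, was not called (-0.37 ± 0.20, adjusted p = 0.177), and its value under upper-quartile normalization was -0.02.

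The subunits of phosphofructokinase, the committed step, went apart. PFKP, the platelet-type subunit (chr10:3066333-3137718, hg38), fell in BT-16 from 14011 to 1647 counts and in CHLA-266 from 10137 to 1229. Its log2 fold change of -2.82 ± 0.19 was the lowest of all 45 members (7.05-fold lower, adjusted p = 1.98e-05), and the cell lines gave nearly the same log2 ratio, -2.83 (95% interval -2.91 to -2.76) and -2.80 (-2.89 to -2.71). These intervals cover counting error only. PFKL, the liver-type subunit, fell in BT-16 from 10553 to 3099 counts and in CHLA-266 from 7187 to 2470 (-1.42 ± 0.18, adjusted p = 0.000834). PFKM, the muscle-type subunit, stood at 11171 and 9590 counts in BT-16 and at 8539 and 8870 in CHLA-266 (0.16 ± 0.16, adjusted p = 0.441).

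Before treatment no subunit of phosphofructokinase dominated per kilobase, and after it PFKM was the main one. PFKP made up 39.8% and PFKM 34.1% of the summed level in untreated BT-16 cells, and 39.7% and 35.8% in untreated CHLA-266 cells. After treatment, PFKM made up 70.3% and 73.8%, PFKL 18.4% and 16.7%, and PFKP 11.3% and 9.53%, in BT-16 and CHLA-266. The summed level went from 65.6 to 32.6 CPM (counts scaled to a common library total) per kilobase in BT-16 and from 53.4 to 31.9 in CHLA-266. The ratio of PFKM to PFKP was higher after treatment by 7.30-fold (BT-16) and 8.57-fold (CHLA-266). PFKFB3, which makes the fructose bisphosphate that activates phosphofructokinase, was not called (-0.02 ± 0.21, adjusted p = 0.958, turning to 0.33 under upper-quartile normalization), with a log2 ratio of -0.38 in BT-16 and 0.30 in CHLA-266.

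**Figure D3:**
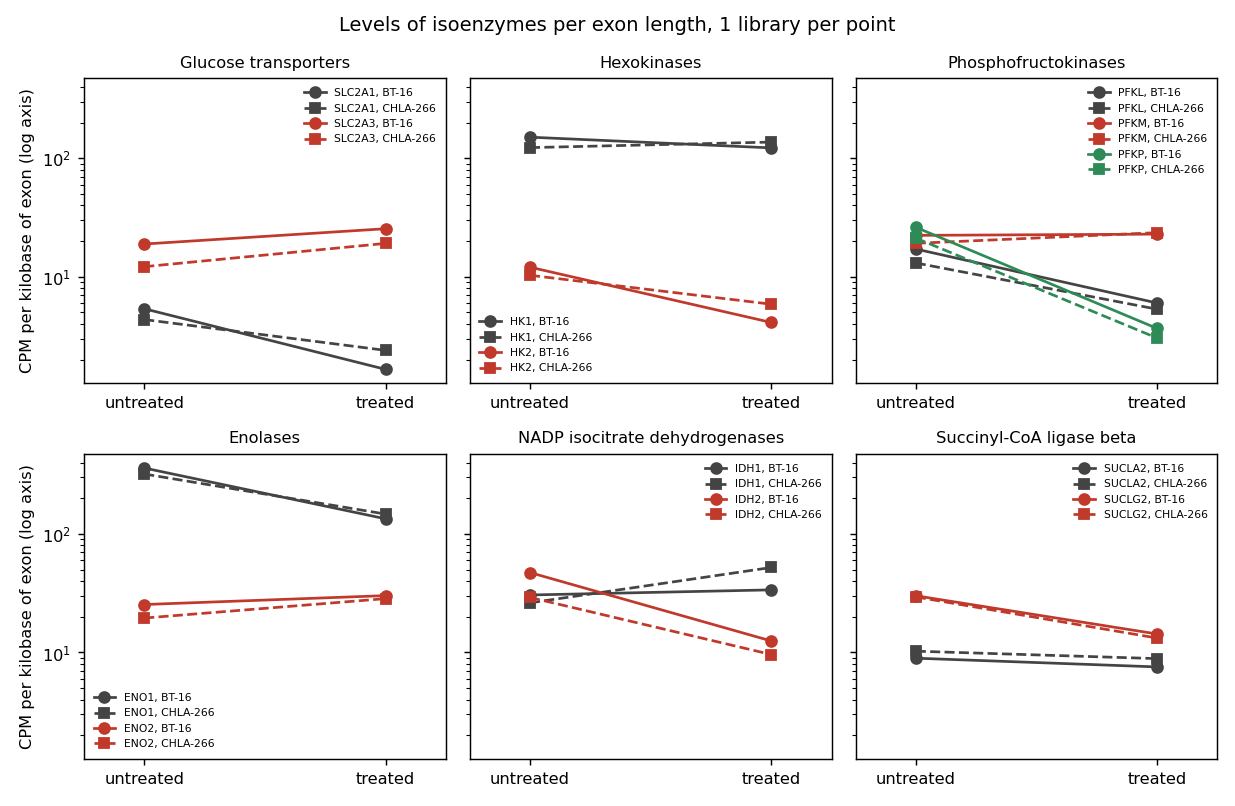
Levels of isoenzymes in TMM-normalized CPM per kilobase of exon on a log axis, with 1 library per point and lines joining the untreated and treated library of the same cell line (solid, BT-16; dashed, CHLA-266). SLC2A3, ENO2, and IDH1 lie higher after treatment in both lines. PFKM is nearly level in BT-16 (22.3 and 22.9) and higher after treatment in CHLA-266 (19.1 and 23.6). PFKP falls from 26.1 to 3.66 in BT-16 and from 21.2 to 3.04 in CHLA-266.

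In the lower part of glycolysis, ALDOC, TPI1, PGAM1, and ENO1 fell, while ALDOA, GAPDH, ENO2, and PKM were not called. ALDOC, the brain-type aldolase, fell in BT-16 from 1406 to 139 counts and in CHLA-266 from 637 to 126 (-2.67 ± 0.38, 6.36-fold lower, adjusted p = 0.00135). ALDOA, the main aldolase of most tissues, stood at 2980 and 2528 counts in BT-16 and at 2689 and 2289 in CHLA-266 (0.01 ± 0.16, adjusted p = 0.949). The ratio of ALDOA to ALDOC was 8.58-fold and 4.30-fold higher in treated BT-16 and CHLA-266 cells. A gene on the same strand shares 42.8% of the exon bases of ALDOA, so reads of ALDOA may be counted elsewhere or dropped, and its level is uncertain.

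TPI1, triosephosphate isomerase, fell in BT-16 from 79091 to 33057 counts and in CHLA-266 from 53219 to 21468 (-1.03 ± 0.22, adjusted p = 0.00847). GAPDH, which follows it and is often used as a reference gene, stood at 169913 and 96658 counts in BT-16 and at 131638 and 93066 in CHLA-266. GAPDH was not called (-0.41 ± 0.18, adjusted p = 0.0997, or 0.0319 in the model that holds the cell line), although both treated libraries lay below both untreated ones. PGAM1, phosphoglycerate mutase, fell in BT-16 from 13951 to 4730 counts and in CHLA-266 from 10560 to 3334 (-1.36 ± 0.19, adjusted p = 0.00103). GAPDH and PGAM1 have many processed pseudogenes, with which they may share reads. PGK1, the step between them, lies on the X chromosome and was not analysed here.

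Enolase, like phosphofructokinase, shifted between isoenzymes. ENO1, the broadly expressed form, fell in BT-16 from 129511 to 40451 counts and in CHLA-266 from 102847 to 39864 (-1.27 ± 0.17, adjusted p = 0.00103). ENO2, the neuron-specific form used as a marker of neuroendocrine cells, stood at 7493 and 7468 counts in BT-16 and at 5142 and 6330 in CHLA-266 (0.39 ± 0.18, adjusted p = 0.12, or 0.0321 in the model that holds the cell line). ENO1 remained the main form, but the share of ENO2 per kilobase went from 6.59% to 18.4% in BT-16 and from 5.74% to 16.2% in CHLA-266. The ratio of ENO2 to ENO1 was 3.19-fold higher in BT-16 and 3.18-fold higher in CHLA-266. PKM, pyruvate kinase of muscle and tumors, whose splice forms cannot be told apart in a count per gene, stood at 185986 and 188703 counts in BT-16 and at 128310 and 135109 in CHLA-266 (0.29 ± 0.21, adjusted p = 0.284). By mean level per kilobase, PKM ranked behind GAPDH, TPI1, and ENO1 in untreated cells and only behind GAPDH in treated cells.

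Lactate genes fell together, except for a transporter near background. LDHA, the lactate dehydrogenase subunit that favors lactate formation (chr11:18394560-18408425, hg38), fell in BT-16 from 53459 to 17013 counts and in CHLA-266 from 50497 to 10860 (-1.66 ± 0.20, 3.17-fold lower, adjusted p = 0.000598). LDHB, the heart-type subunit, fell in BT-16 from 612 to 210 counts and in CHLA-266 from 453 to 162 (-1.27 ± 0.34, adjusted p = 0.0202). LDHA exceeded LDHB per kilobase by 43.2-fold before and 40.1-fold after treatment of BT-16, and by 55.2-fold and 33.2-fold for CHLA-266, but a gene on the same strand shares 33.4% of the exon bases of LDHB, so its level may be too low. The call of LDHB was lost without the untreated BT-16 library (adjusted p = 0.0846), without the treated CHLA-266 library (0.0608), and with upper-quartile normalization (0.0686).

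SLC16A1 (MCT1), a monocarboxylate transporter, fell in BT-16 from 15616 to 6709 counts and in CHLA-266 from 19362 to 7601 (-1.04 ± 0.21, adjusted p = 0.00639). SLC16A3 (MCT4), the transporter of lactate-exporting cells, stood at 106 and 158 counts in BT-16 and at 137 and 128 in CHLA-266 (0.47 ± 0.49, adjusted p = 0.469), which in treated cells is within the level of olfactory receptors. The ratio of PKM to LDHA, the enzymes that make pyruvate and reduce it to lactate, was higher after treatment by 3.19-fold (BT-16) and 4.90-fold (CHLA-266).

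Sequences of promoters are shown for LDHA and for the isoenzymes that went apart, PFKP against PFKM and ENO1 against ENO2, since these pairs carry the contrast within glycolysis. Of the 45 members, 41 had a promoter in the RefSeq table for GRCh38.p14 (250 bases before to 50 after the start), and SLC2A3, SLC16A1, OGDH, and SDHC are named only. Only the first listed window of a gene was used, and other starts of a gene were not examined. Capitals mark ACGTG on either strand, a form of the core (A or G followed by CGTG) that hypoxia-inducible factors are known to recognize. The form with G, GCGTG, was neither marked nor counted. Capitals include CACGTG, the palindromic E-box that MYC can bind. The windows are LDHA chr11:18394313-18394612 (plus strand), PFKP chr10:3067720-3068019 (plus), PFKM chr12:48105623-48105922 (plus), ENO1 chr1:8878637-8878936 (minus), and ENO2 chr12:6914330-6914629 (plus), written from the gene's 5′ to 3′ end.
LDHA: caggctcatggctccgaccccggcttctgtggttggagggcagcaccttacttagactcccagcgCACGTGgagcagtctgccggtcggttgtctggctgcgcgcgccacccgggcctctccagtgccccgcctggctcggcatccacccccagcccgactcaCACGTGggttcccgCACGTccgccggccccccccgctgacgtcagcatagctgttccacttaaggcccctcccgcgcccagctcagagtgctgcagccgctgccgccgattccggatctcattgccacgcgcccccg
PFKP: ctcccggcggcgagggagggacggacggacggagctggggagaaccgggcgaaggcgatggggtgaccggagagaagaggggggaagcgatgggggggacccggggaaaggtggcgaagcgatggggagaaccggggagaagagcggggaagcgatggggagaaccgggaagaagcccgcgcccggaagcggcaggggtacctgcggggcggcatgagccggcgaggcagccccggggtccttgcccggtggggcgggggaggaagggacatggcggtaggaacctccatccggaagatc
PFKM: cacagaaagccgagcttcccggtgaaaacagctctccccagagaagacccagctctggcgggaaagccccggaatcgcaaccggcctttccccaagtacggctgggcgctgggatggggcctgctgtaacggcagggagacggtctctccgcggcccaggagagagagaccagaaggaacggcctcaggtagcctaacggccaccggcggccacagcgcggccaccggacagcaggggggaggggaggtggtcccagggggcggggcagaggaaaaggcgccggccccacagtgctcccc
ENO1: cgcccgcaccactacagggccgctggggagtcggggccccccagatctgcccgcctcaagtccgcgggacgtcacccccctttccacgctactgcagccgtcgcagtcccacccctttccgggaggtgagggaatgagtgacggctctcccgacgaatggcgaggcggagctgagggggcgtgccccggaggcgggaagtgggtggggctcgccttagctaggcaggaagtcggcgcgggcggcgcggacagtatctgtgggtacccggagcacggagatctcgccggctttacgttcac
ENO2: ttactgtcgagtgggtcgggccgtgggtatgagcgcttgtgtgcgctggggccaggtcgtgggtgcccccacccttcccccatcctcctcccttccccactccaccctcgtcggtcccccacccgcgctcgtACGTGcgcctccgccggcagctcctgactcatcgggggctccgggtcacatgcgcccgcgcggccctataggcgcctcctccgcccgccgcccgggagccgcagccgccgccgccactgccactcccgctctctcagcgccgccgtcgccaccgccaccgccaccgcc

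The LDHA window held 3 separate sites of ACGTG, of which 2 were CACGTG, the ENO2 window held 1, and the windows of PFKP, PFKM, and ENO1 held 0. ACGTG on either strand was found in 21.6% of all 27305 promoters of this length and in 23.7% of the 14383 promoters of genes tested. It was found in 11 of 41 member promoters, with 7 of 19 in glycolysis and lactate and 1 of 16 in the TCA cycle (IDH1). Among called members 4 of 24 promoters held it, and among members not called 7 of 17. CACGTG, which contains ACGTG on both strands, was in 7.43% of all promoters and in 4 of 41 member promoters (ALDOC, GAPDH, LDHA, and PDHB). GCGCATGC, the core of the NRF1 motif, was in 3.27% of all promoters and in 2 of 41, and TGACNNNGC, the antioxidant response core, was in 13.6% and in 5 of 41. A match is a description of these letters and not a bound site, and the absence of a match says only that the letters are not in this window.

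Pyruvate enters the TCA cycle through the pyruvate dehydrogenase complex. DLAT, its E2 subunit, fell in BT-16 from 6910 to 2760 counts and in CHLA-266 from 6908 to 2683 (-1.10 ± 0.16, adjusted p = 0.00141). PDHB, the E1 beta subunit, stood at 8524 and 4354 counts in BT-16 and at 10176 and 7440 in CHLA-266 (-0.40 ± 0.29, adjusted p = 0.289, or 0.0161 in the model that holds the cell line). PDHB was lower after treatment in each line, but its libraries overlapped between conditions because CHLA-266 was higher in both. PDHA1 lies on the X chromosome and was not analysed here.

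The kinases among the members, which switch the complex off, fell or were near background. PDK3, a further such kinase, lies on the X chromosome and was not analysed here. PDK1 fell in BT-16 from 1668 to 572 counts and in CHLA-266 from 1168 to 506 (-1.14 ± 0.24, adjusted p = 0.00763, and 0.052 without the untreated BT-16 library). PDK2 fell in BT-16 from 897 to 215 counts and in CHLA-266 from 582 to 28 (-2.39 ± 0.72, adjusted p = 0.0315). PDK2 had log2 ratios of -1.80 (BT-16) and -4.11 (CHLA-266), and this difference between the lines has no test. Its call was lost without the untreated BT-16 library (adjusted p = 0.0699), with genes of at least 10 counts in every library (0.064), and with upper-quartile normalization (0.0548). SAMD14, on the other strand, shares 38.6% of the exon bases of PDK2, and whether strand was used in the counting is not given in the sources used here. PDK4, which responds to fasting and fatty acids, stood at 3 and 25 counts in BT-16 and at 0 and 38 in CHLA-266, was not called (adjusted p = 0.0651), and lay within the level of olfactory receptors. PC, pyruvate carboxylase, which feeds oxaloacetate to the cycle, was not called (-0.04 ± 0.19, adjusted p = 0.884, turning to 0.31 under upper-quartile normalization), with a log2 ratio of -0.22 in BT-16 and 0.18 in CHLA-266.

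In the first steps of the TCA cycle, citrate synthase and the mitochondrial NADP-dependent isocitrate dehydrogenase fell. CS, citrate synthase, fell in BT-16 from 14105 to 5765 counts and in CHLA-266 from 11458 to 4548 (-1.06 ± 0.16, adjusted p = 0.00186). IDH2, the mitochondrial NADP-dependent form (chr15:90083045-90102477, hg38), fell in BT-16 from 9075 to 2014 counts and in CHLA-266 from 4997 to 1391, and its log2 fold change of -1.79 ± 0.25 was the lowest of the TCA cycle (3.45-fold lower, adjusted p = 0.00116). IDH1, the cytosolic NADP-dependent form (chr2:208236229-208266074, hg38), stood at 9901 and 9163 counts in BT-16 and at 7584 and 12725 in CHLA-266. IDH1, whose enzyme lies outside the mitochondrial cycle, was the only member of the TCA cycle list above 0 (0.60 ± 0.22, adjusted p = 0.0646, or 0.0067 in the model that holds the cell line). IDH1 had log2 ratios of 0.14 (BT-16) and 0.99 (CHLA-266), so its fold change rested mainly on CHLA-266. IDH1 lay below IDH2 per kilobase in both untreated libraries (ratios of 0.647 and 0.900) and above it in both treated libraries (2.70 and 5.43), in BT-16 and CHLA-266. By raw counts IDH1 lay above IDH2 in both untreated libraries too, so the order there rests on the exon lengths used (4699 and 2787 bases). The ratio of IDH1 to IDH2, whose change does not depend on length, was 4.17-fold and 6.03-fold higher after treatment.

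The NAD-dependent isocitrate dehydrogenase is built from several subunits. IDH3B fell in BT-16 from 6131 to 2664 counts and in CHLA-266 from 5364 to 2449 (-0.92 ± 0.15, adjusted p = 0.00266). IDH3A, the catalytic subunit, stood at 3548 and 2661 counts in BT-16 and at 4289 and 2236 in CHLA-266 (-0.44 ± 0.19, adjusted p = 0.0977, or 0.0385 in the model that holds the cell line), and ACSBG1 on the other strand shares 38.2% of its exon bases. The 2-oxoglutarate dehydrogenase complex fell in all 3 subunits, by less than most members. OGDH went in BT-16 from 6409 to 3397 counts and in CHLA-266 from 4904 to 2613 (-0.66 ± 0.17, adjusted p = 0.0172). DLST went from 8870 to 4365 and from 7284 to 4083 (-0.68 ± 0.15, adjusted p = 0.0106). DLD, which the pyruvate dehydrogenase complex also uses, went from 9262 to 5702 and from 9032 to 5052 (-0.52 ± 0.15, adjusted p = 0.0304). These calls were close to the threshold, and with upper-quartile normalization the adjusted p was 0.17 for OGDH, 0.105 for DLST, and 0.382 for DLD. Without the untreated BT-16 library it was 0.0926, 0.0557, and 0.0707.

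Succinyl-CoA ligase joins a shared alpha subunit to a beta subunit that sets the use of ADP or GDP. SUCLG1, the alpha subunit, fell in BT-16 from 6377 to 3045 counts and in CHLA-266 from 6282 to 2459 (-0.96 ± 0.16, adjusted p = 0.00273). SUCLG2, the GTP-forming beta subunit, fell from 6411 to 2556 and from 5591 to 2122 (-1.11 ± 0.15, adjusted p = 0.00114). SUCLA2, the ATP-forming beta subunit, stood at 5481 and 3877 counts in BT-16 and at 5604 and 4095 in CHLA-266 and was not called (-0.23 ± 0.17, adjusted p = 0.31, turning to 0.12 under upper-quartile normalization). The ratio of SUCLA2 to SUCLG2 was 1.77-fold and 1.93-fold higher in treated BT-16 and CHLA-266 cells, although SUCLG2 remained the higher gene per kilobase in every library.

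Succinate dehydrogenase, which is also complex II of the respiratory chain, was lower in its 4 subunits in both lines, and 2 of them were called. SDHB, the iron-sulfur subunit, fell in BT-16 from 9212 to 4688 counts and in CHLA-266 from 7398 to 3588 (-0.76 ± 0.17, adjusted p = 0.00907, and 0.0809 with upper-quartile normalization). SDHD, a membrane anchor, fell from 1910 to 695 and from 1837 to 771 (-1.10 ± 0.21, adjusted p = 0.00557). SDHC, the other anchor, stood at 1316 and 825 counts in BT-16 and at 1253 and 639 in CHLA-266 (-0.57 ± 0.22, adjusted p = 0.0757, or 0.0364 in the model that holds the cell line). SDHA, the flavoprotein subunit, was not called (-0.50 ± 0.22, adjusted p = 0.103). Genes on the same strand share 21.7% of the exon bases of SDHA and 11.4% of those of SDHD.

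At the end of the cycle, fumarate hydratase and malate dehydrogenase were measured. FH, fumarate hydratase (chr1:241497511-241519799, hg38), fell in BT-16 from 6000 to 1567 counts and in CHLA-266 from 4509 to 1218 (-1.66 ± 0.18, 3.17-fold lower), with the smallest adjusted p of the TCA cycle (0.000297) and nearly equal log2 ratios of -1.68 and -1.64. MDH1, the cytosolic malate dehydrogenase of the malate-aspartate shuttle, fell from 15150 to 7998 and from 11594 to 5239 (-0.77 ± 0.20, adjusted p = 0.0169). The MDH1 call was lost without the treated CHLA-266 library (adjusted p = 0.0553), without the untreated BT-16 library (0.0777), and with upper-quartile normalization (0.123). MDH2, the mitochondrial form, stood at 16965 and 9594 counts in BT-16 and at 11656 and 7497 in CHLA-266 (-0.49 ± 0.18, adjusted p = 0.0682, or 0.00859 in the model that holds the cell line). The malate dehydrogenases went apart less than the isocitrate dehydrogenases, with a change of the log2 ratio of MDH1 to MDH2 of -0.10 in BT-16 and -0.51 in CHLA-266.

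**Figure D4:**
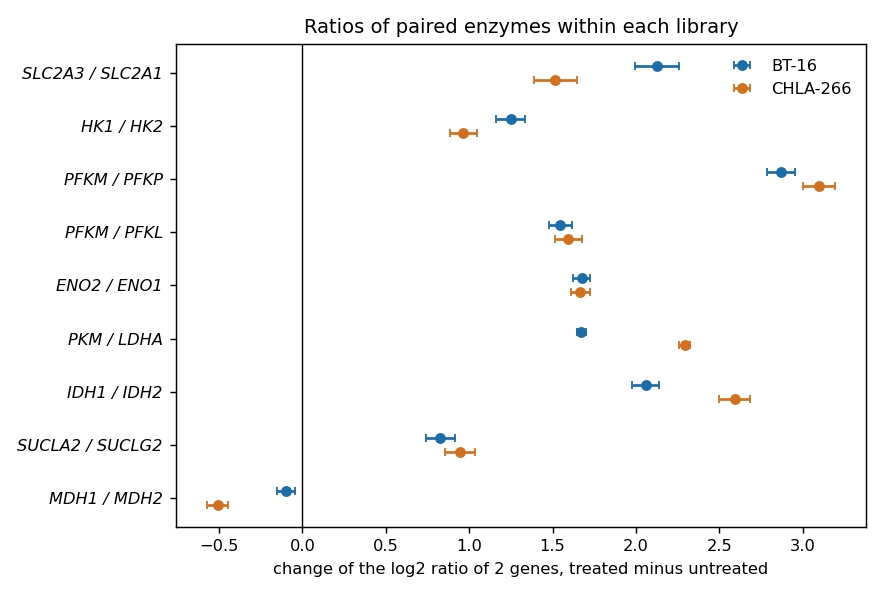
Change of the log2 ratio of 2 genes within a library, treated minus untreated, for BT-16 (blue) and CHLA-266 (orange), with bars for the 95% interval from counting error. Ratios do not depend on library scaling, but their sign follows from which gene is put first, so a count of ratios above 0 is no result. Apart from MDH1 to MDH2, which lies below 0, the changes shown run from 0.83 for SUCLA2 to SUCLG2 in BT-16 to 3.10 for PFKM to PFKP in CHLA-266. LDHA to LDHB, among the pairs not shown, changed by -0.11 (BT-16) and -0.73 (CHLA-266).

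To ask whether the cell lines themselves differed, CHLA-266 was compared with BT-16 over both conditions, with treatment in the edgeR model. Of the 45 members, 2 were called, where 2.3% of all genes tested were called in either direction. PDHB was higher in CHLA-266 (log2 fold change 0.67, adjusted p = 0.0114), and PDK2 was lower (-1.49, adjusted p = 0.0436). Neither call held when genes with fewer than 10 counts in any library were left out. For the other 43 members a p that misses the threshold does not show equal levels. With 4 libraries, leaving out 1 leaves no residual degrees of freedom in this model.

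Other genes of the same pathways were counted from further lists, which were also chosen with earlier results of these data known. For comparison, 16.1% of all genes tested were called higher and 19.1% lower. Of 30 other genes of glycolysis and gluconeogenesis tested, 6 rose and 3 fell, and SLC2A2, SLC2A10, and PGK2 among the risers had at most 81 counts in any library. The smallest adjusted p among risers belonged to PFKFB2, a regulator of phosphofructokinase (1965 and 3213 counts in BT-16, 1590 and 2507 in CHLA-266, log2 fold change 0.93, adjusted p = 0.00479). It was followed by HKDC1, a rare hexokinase (36 and 224, 65 and 634, adjusted p = 0.00513), and by SLC2A13, a myo-inositol transporter (1438 and 1917, 1520 and 3008, adjusted p = 0.0201). PGM2, SLC2A8, and ENO3 fell, from 2903 to 909, from 646 to 247, and from 1362 to 541 counts in BT-16. Of 16 other lactate and pyruvate genes, 3 rose and the other 13 were not called. LDHD, the D-lactate dehydrogenase, rose by 1.51 (adjusted p = 0.0149) and PDP1, the phosphatase that reactivates pyruvate dehydrogenase, by 1.46 (adjusted p = 0.0284), while SLC16A7 rose from 1 to 46 and from 0 to 21 counts, within the level of olfactory receptors.

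Genes around the TCA cycle were mostly lower too. Of 20 other TCA cycle and shuttle genes, 10 fell and 1 rose, where 19.1% of all genes tested fell and 16.1% rose. Their median log2 fold change was -0.65. Under upper-quartile normalization 6 of them fell and 1 rose, and the median was -0.30. GPD2, the mitochondrial glycerol phosphate dehydrogenase, fell in BT-16 from 1738 to 387 counts and in CHLA-266 from 1527 to 278 (-2.05 ± 0.24, adjusted p = 0.000503). SLC25A10, the dicarboxylate carrier, fell from 836 to 128 and from 680 to 123 (-2.34 ± 0.32, adjusted p = 0.00103), and SDHAF3, an assembly factor of succinate dehydrogenase, fell by 1.33 (adjusted p = 0.00284). GLUD1, glutamate dehydrogenase, which makes 2-oxoglutarate, rose from 6435 to 7764 and from 5655 to 8175 counts (0.66 ± 0.16, adjusted p = 0.0148). Of 7 genes of the pentose phosphate pathway, 1 fell (RPIA, -1.20, adjusted p = 0.00684), and PGD and TKT, both abundant, had log2 fold changes of 0.03 and 0.20.

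Of 20 regulators of these pathways, 3 rose and 7 fell, where 16.1% of all genes tested were called higher and 19.1% lower. Upper-quartile normalization called 4 regulators higher and 2 lower, where 24.1% of all genes were called higher and 10.5% lower. TFAM, which maintains mitochondrial DNA, fell in BT-16 from 6796 to 2374 counts and in CHLA-266 from 7624 to 2100 (-1.45 ± 0.17, adjusted p = 0.000542). NRF1, a factor for nuclear genes of mitochondria, fell from 1592 to 542 and from 1217 to 403 (-1.32 ± 0.24, adjusted p = 0.00424), and PPRC1, a coactivator, fell by 0.65 (adjusted p = 0.0135, and 0.144 with upper-quartile normalization). EPAS1, the HIF-2 alpha subunit, rose in BT-16 from 189 to 805 counts and in CHLA-266 from 137 to 838 (2.60 ± 0.31, adjusted p = 0.000509). EGLN3, a prolyl hydroxylase that HIF induces, had 3 and 162 counts and 31 and 174 counts (3.49 ± 0.96, adjusted p = 0.0226), and MYCN had 0 and 58 and 0 and 8. In treated cells MYCN lay within the level of olfactory receptors in both lines (21.1 and 2.90 counts per kilobase), and EGLN3 lay within it in BT-16 (22.0) and just above it in CHLA-266 (23.6). HIF1A was not called (8881 and 6247 counts in BT-16, 8512 and 6353 in CHLA-266, adjusted p = 0.312). MYC was lower by 0.59 on the log2 scale (adjusted p = 0.0289), with an adjusted p of 0.25 under upper-quartile normalization.

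Markers of other cell types also moved with treatment, at low levels. Among all genes tested, 16.1% were called higher and 19.1% lower. Of 10 macrophage markers, 3 rose and 7 were not called, and their summed level was 3.69 to 6.64 CPM in untreated and 10.9 to 12.6 CPM in treated libraries. The risers were ITGAM (4 to 111 counts in BT-16, 4 to 196 in CHLA-266), AIF1 (0 to 27, 0 to 55), and CD163 (8 to 56, 0 to 63). In treated cells CD163 lay within the level of olfactory receptors in both lines (9.63 and 10.8 counts per kilobase). ITGAM (19.5) and AIF1 (21.7) lay within it in BT-16 and above it in CHLA-266 (34.5 and 44.2). CD68 had 3 and 1 counts in untreated and 0 in treated libraries, but a gene on the same strand shares 81.6% of its exon bases, so its reads may have been dropped. Of 10 fibroblast and endothelial markers, 5 rose and 1 fell, with 10.8 to 15.0 CPM in untreated and 18.7 to 29.4 CPM in treated libraries. VWF (45 to 405 counts in BT-16, 40 to 216 in CHLA-266), PDGFRA (11 to 128, 15 to 206), and KDR (2 to 32, 2 to 62) were among the risers, and COL1A2 fell (408 to 103, 412 to 49). In treated cells KDR lay within the level of olfactory receptors in both lines (5.05 and 9.78 counts per kilobase), PDGFRA in BT-16 (13.4), and VWF in CHLA-266 (20.8). In all, 7 of the 10 macrophage markers and 8 of the 10 fibroblast and endothelial markers were higher in both lines, as were 8762 of the 18066 genes tested. LUM was at 0 in both CHLA-266 libraries. Of 18 tissue-restricted genes tested, 8 rose and 10 were not called, with 1.10 to 1.16 CPM in untreated and 11.7 to 16.8 CPM in treated libraries. The part of these signals, of the fall of MKI67, and of the higher number of detected genes in the members' results was not tested.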

How the data were processed

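RNA of the 4 cultures (10 ng input) was made into libraries with a stranded kit and sequenced with paired ends on a NovaSeq X Plus. Per the methods and labels, the authors used bcl2fastq 2.20, Skewer, and STAR with hg38, counted reads per gene, added gene symbols with biomaRt, and removed genes counted repeatedly and genes of the sex chromosomes. The deposited estimated counts carry no normalization. They were rounded, since 2 genes held 5 values that were not whole. The deposited log2 values are variance-stabilized values for 17553 genes and served as an alternative.

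Of 18449 symbols, 383 with a total of 0 were left out. The remaining 18066 genes were fitted with edgeR 4.0.16 in R 4.3.3 (quasi-likelihood test, TMM, Benjamini-Hochberg adjustment over all genes tested), without the cell line in the model. Values after ± are standard errors derived from the fitted coefficient and its quasi-likelihood test statistic. The variance in that statistic is moderated across genes, so they are not the spread of 2 libraries alone. The libraries of a cell line are paired by the line itself. As a check, paired libraries deviated together (correlation 0.263 over 12620 genes), and including the line as a block lowered the common dispersion from 0.140 to 0.0712. Within a cell line, log2 ratios used TMM-normalized counts with 0.5 counts added and exact Clopper-Pearson 95% intervals, which are too narrow if both reads of a pair were counted. An exact permutation test of 2 against 2 libraries cannot give a p below 0.333 and was not used. Levels between genes were divided by the length of all annotated exons of a gene in GENCODE 44 (hg38), with overlapping bases counted once. This length can exceed that of the transcripts in use, so the order of 2 genes by level depends on it. The scripts were tested on simulated data. DESeq2 1.42.0, limma 3.58.1, other normalizations and filters, and each library left out in turn were alternatives.

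The members and lists were chosen with earlier results of these data known. Named are all members, with counts for isoenzymes and for members called with or without the block, and up to 3 called genes per direction in each other list. HIF1A, SLC2A2, SLC2A10, PGK2, SLC2A14, PGD, TKT, LUM, CD68, PTPRC, and CSF1R were named after their values were seen.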

Additional observations from a re-analysis of the deposited data

Results flagged for a closer look

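HK1, PFKFB3, and PC were lower in treated cells of one cell line and higher in treated cells of the other. As log2 ratios for BT-16 and CHLA-266, HK1 had -0.30 and 0.16, PFKFB3 had -0.38 and 0.30, and PC had -0.22 and 0.18. With 1 library per cell line and condition, the difference between the cell lines was not tested. With library totals in place of TMM, the fold change over both lines was above 0 for these 3 genes.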

How the results depend on the processing

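Of the 26 members called lower, 18 stayed called under every alternative with an adjusted p, and the other 8 were LDHB, PDK1, PDK2, OGDH, DLST, DLD, SDHB, and MDH1. The median of all genes was 0.24 (TMM), 0.31 (DESeq2 size factors), 0.46 (library totals), and 0.59 (upper-quartile normalization). Library totals called 3678 genes higher and 2353 lower and upper-quartile normalization 4361 and 1895, compared with 2910 and 3454.

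With the replicate block (the cell line as a term), 2 glycolysis and lactate genes and 1 TCA cycle gene were higher and 15 TCA cycle genes lower, and the block removed no call. With the block and upper-quartile normalization, 4 glycolysis and lactate genes and 1 TCA cycle gene were higher, with medians of -0.69 for glycolysis and lactate, -0.43 for pyruvate entry, and -0.37 for the TCA cycle. With upper-quartile normalization alone, 4 and 1 were higher and 7 TCA cycle genes lower, with medians of -0.67, -0.41, and -0.37. With library totals, 2 and 1 were higher, with medians of -0.79, -0.53, and -0.49. With at least 10 counts in every library, 1 and 1 were higher, with medians of -0.84 for glycolysis and lactate and -0.53 for the TCA cycle. DESeq2 called 2 genes of glycolysis and lactate, 1 of pyruvate entry, and 1 of the TCA cycle higher without the cell line and 3, 1, and 1 with the replicate block, with TCA cycle medians of -0.65 and -0.65, and DESeq2 size factors in edgeR gave 1 TCA cycle gene higher and a median of -0.65. The filter of edgeR called 1 pyruvate entry gene higher, as did limma on the log2 values, which gave medians of -0.72 for glycolysis and lactate and -0.62 for the TCA cycle. On the TPM scale (levels per length with a common sum per library), added after seeing the data, medians in BT-16 and CHLA-266 were -0.45 and -0.45 for glycolysis and lactate, -0.38 and -0.22 for pyruvate entry, and -0.18 and -0.40 for the TCA cycle.

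With each library left out in turn, glycolysis and lactate genes called higher ranged from 0 to 1 and lower from 10 to 11, with medians of -0.89 to -0.79. Pyruvate entry genes called higher ranged from 0 to 1 and lower from 1 (without the untreated BT-16 library) to 4, with medians of -1.02 to -0.55, and TCA cycle genes called higher from 0 to 1 and lower from 8 (without that library) to 12, with medians of -0.83 to -0.59. The lone library of a condition is then assumed to vary like the others.

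With the lactate genes set apart, an alternative added after seeing the data, the median of glycolysis minus that of the TCA cycle went from -0.31 to 0.31 over both lines, from -0.27 to 0.10 in BT-16, and from -0.05 to 0.51 in CHLA-266, since the 4 lactate genes were left out of it.

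Values near 0 changed sign. HK1 was 0.10 with at least 10 counts in every library, 0.15 with library totals, 0.27 with upper-quartile normalization, 0.27 with that and the block, and -0.22 to 0.076 with a library left out (0.0032 without the treated BT-16 library). GPI was 0.0017 with the block and upper-quartile normalization. PFKFB3 was 0.049 with DESeq2 size factors, 0.025 and 0.049 with DESeq2 with and without the block, 0.16 with at least 10 counts, 0.017 with the filter of edgeR, 0.20 with library totals, 0.025 with limma, 0.33 with upper-quartile normalization, 0.30 with that and the block, and -0.32 to 0.24 with a library left out (0.038 without the untreated BT-16 library). PC was 0.033 with DESeq2 size factors, 0.047 and 0.033 with DESeq2 with and without the block, 0.15 with at least 10 counts, 0.19 with library totals, 0.044 with limma, 0.31 with upper-quartile normalization, 0.33 with that and the block, and -0.25 to 0.21 with a library left out (0.00025 without the treated CHLA-266 library). SUCLA2 was 0.12 with upper-quartile normalization and 0.12 with that and the block. The cause was not tested.

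In the comparison of CHLA-266 with BT-16, 1 member was higher and 1 lower. DESeq2 called 1 and 0, edgeR with DESeq2 size factors 1 and 4, and 0 and 0 members were called with at least 10 counts in every library and without treatment in the model. A library could not be left out there. Halved counts, added after seeing the data for pairs counted as 2 reads, moved 0 of 90 counting intervals of members onto 0. Depth limits PDK4, SLC16A3, and PDK2 in treated CHLA-266 cells, which lie within the level of olfactory receptors.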
